A study of Mus musculus with 16 samples.

Results

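Tubulins, the gamma-tubulin complex and the enzymes that modify tubulin were followed in the RNA of mouse testes lacking Ythdc2. The genes were those with a protein-coding symbol starting with Tuba, Tubb, Tubd, Tube, Tubg (Tubgcp included), Ttll or Agbl that reached 10 in 2 or more of the 4 libraries compared at postnatal day 16 (P16). Of 55414 gene IDs, of which 52081 had a name, 43 matched the symbols and 36 met the minimum. These 36 comprised 6 alpha-tubulins, 6 beta-tubulins, 4 gamma-, delta- and epsilon-tubulins, 5 gamma-tubulin complex proteins, 11 tubulin tyrosine ligase-like enzymes and 4 cytosolic carboxypeptidases of the Agbl family. All 36 reached the minimum in all 4 libraries, control and knockout, so none entered through 1 group. The 7 left out were Agbl1, Ttll2, Ttll8, Tuba8, Tubal3, Tubb1 and Tubb4a, which stayed under 10 in each of the 4 libraries, with Tubb1 closest at 8.29 in one of them. Just inside were Ttll10 (14.6 and 20.8 in control, 45.6 and 27.96 in knockout) and Tubb2b (18.7 and 30.3 in control, 31.1 and 21.8 in knockout).

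Microtubules are polymers of alpha- and beta-tubulin, and each subunit is encoded by several genes that differ in where they are expressed. The gamma-tubulin ring complex, built from gamma-tubulin and the Tubgcp proteins, seeds new microtubules at centrosomes and elsewhere. Ttll enzymes add chains of glutamate or glycine to the tails of tubulin and Agbl enzymes trim glutamates off again, and in the testis these marks are best known for their place in the meiotic spindle, the manchette and the sperm flagellum.

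The 16 libraries were made from total RNA of whole testes at P14 or P16, the days when the first wave of germ cells is in meiotic prophase. Ythdc2 encodes an RNA helicase that germ cells need for meiosis, and the series' title assigns it a late role in spermatocytes. The conditional knockout (cKO) mice, the mice labelled control and those labelled Cre control had all been given tamoxifen on P12 and again on P13, from a solution of 10 mg per ml. Tamoxifen activates an inducible Cre recombinase in such designs. The column headers of the deposited tables call the control libraries WT. The labels give no further genotype for either control, name no promoter for Cre and do not say whether replicates came from separate animals, so the p-values below measure the spread between libraries. At each stage there were 2 control and 3 cKO libraries. Cre control had 2 at P14, and at P16 it had 4. Controls and cKO libraries 1 and 2 were depleted of ribosomal RNA with Ribo-Zero reagents ("the first kit"). Cre controls and cKO library 3 were depleted with the NEBNext kit ("the second kit"). The comparison of cKO with control therefore stays within a kit, and in the comparison with Cre control 2 of the 3 cKO libraries differ from every control in kit. By the column headers the 8 libraries of the first kit came from 1 sequencing run and those of the second from 2 others: Cre controls 2 to 4 at P16 from one, and the remaining 5 libraries from the other.

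Reads on genes numbered 22220565 to 27531529 in the 8 libraries of the first kit and 14494867 to 23200252 in the 8 of the second. Ythdc2, the deleted gene, stood at 2666 and 2609 in control and 501.7 and 540.6 in cKO at P16, and at 2027 and 2262 in control and 658.3 and 753.2 in cKO at P14. In the second kit, cKO library 3 held 226.3 at P16 against 1392 to 2633 in 4 Cre controls, and 322.8 at P14 against 1352 and 1454. All these are the deposited normalized counts, which are reads after scaling by size factors, and each deposited table was scaled apart. In whole tissue, fewer cells of a type and less RNA per cell cannot be told apart.

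The promoters of 3 modifying enzymes are shown. Agbl2, Ttll6 and Ttll13 were higher at P16 than at P14 in both control types, described further on. Their windows also held no annotated exon. Agbl5, Ttll5, Tuba3a and Tuba3b, higher in both as well, had no window free of exons. Such a window was also found for Tubgcp5, chosen for its interaction with stage, and is not shown. Promoter sequences were taken from RefSeq (GRCm38.p6), and 30 of the 36 genes matched by symbol. Ttll1, Ttll11, Tubb2b, Tubb6, Tubg1 and Tubgcp2 did not. Each line gives the 250 bases before the annotated start, 5′ to 3′ on the plus strand. Capitals mark a match to GTTGCC or its reverse complement, the core of the motif bound by RFX factors. The windows are chr2:90782477-90782726 for Agbl2, chr11:96133536-96133785 for Ttll6 and chr7:80246126-80246375 for Ttll13.
Agbl2: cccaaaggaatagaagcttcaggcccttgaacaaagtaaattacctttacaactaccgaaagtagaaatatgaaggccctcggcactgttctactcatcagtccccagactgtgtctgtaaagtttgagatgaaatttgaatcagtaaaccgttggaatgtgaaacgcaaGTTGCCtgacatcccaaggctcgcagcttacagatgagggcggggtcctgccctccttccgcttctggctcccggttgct
Ttll6: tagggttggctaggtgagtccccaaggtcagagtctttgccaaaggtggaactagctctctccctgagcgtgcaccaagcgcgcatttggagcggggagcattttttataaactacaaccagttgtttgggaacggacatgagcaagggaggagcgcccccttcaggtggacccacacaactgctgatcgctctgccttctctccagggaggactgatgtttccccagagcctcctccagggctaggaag
Ttll13: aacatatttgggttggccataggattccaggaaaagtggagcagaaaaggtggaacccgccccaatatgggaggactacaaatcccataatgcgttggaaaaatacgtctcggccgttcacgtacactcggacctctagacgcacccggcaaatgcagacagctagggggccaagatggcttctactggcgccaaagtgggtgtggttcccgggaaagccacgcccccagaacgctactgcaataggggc
The Agbl2 window held 1 match to GTTGCC, starting 80 bases before the gene's start, and the other two windows held none. A gene was counted if any window of its annotated starts held a match, so genes with more starts had more chances. Of the 30 genes, 7 (23.3%) held GTTGCC on either strand, namely Agbl2, Agbl3, Ttll3, Ttll5, Ttll9, Ttll10 and Tuba1c, against 11.8% of 27025 genes. The motif TAACNG, bound by MYB factors such as the spermatocyte regulator MYBL1, was in 5 of 30 (16.7%), namely Agbl5, Ttll10, Tuba1c, Tube1 and Tubgcp6, against 22.3% of all. A match in these letters is a description of the window and not a site of binding.

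The tubulin message of the testis was dominated by a few genes. Levels of different genes are compared as CPM, reads scaled to the library's total, per kilobase of exon. On this scale Tuba3b stood at 401 and 409 in the 2 control libraries at P16, Tuba3a at 349 and 362, and Tubb4b at 331 and 318. Tuba3a and Tuba3b are alpha-tubulins known for expression in testis, and Tubb4b is a beta-tubulin known from cilia and flagella. That order of Tuba3b and Tuba3a was turned round in control at P14 (215 and 220 against 227 and 238) and in the 4 Cre controls at P16 (Tuba3b 327 to 539, Tuba3a 514 to 719). Next came Tubb5, the broadly expressed beta-tubulin, at 113 and 108, followed by Tuba1a at 63.2 and 65.1 and Tubb3 at 44.4 and 44.9. Outside the alpha- and beta-tubulins the highest level in each role was Tubgcp2 (25.3 and 26.2), Agbl5 (19.6 and 20.6), Ttll12 (18.7 and 18.8) and Tubg1 (15.4 and 14.1), in the same unit. Ttll10 was lowest of the 36, at 0.141 and 0.201. Tubg1, the main gamma-tubulin gene, stood well above Tubg2, at 0.869 and 0.663.

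Several of these genes share sequence, which bears on how reads were divided. Of the 50-base words in its transcripts, Tuba1a shared 72.9% with another gene, Tuba1b 66.7% and Tuba1c 52.7%, mostly within that trio. Tubb2a shared 49.6%, mostly with Tubb2b, and Tubb2b shared 36.9%. Tubb4b shared 37.8%, mostly with a pseudogene, and Tuba3a and Tuba3b shared 33.6% and 29.5%, mostly with each other. Reads mapping to several places were set apart by the authors in a row of their own, so the levels of these genes are lower limits and their division is uncertain. The Tuba1 trio shared more than Tuba3a and Tuba3b, so the lead of the Tuba3 genes may be overstated, by an amount not estimated here.

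Within the alpha-tubulins, the share taken by Tuba3a and Tuba3b together, in CPM per kilobase, was 73.65% and 78.3% in the 2 control libraries at P14 and 86.4% and 86.3% at P16. The control libraries of the stages did not overlap. In cKO libraries 1 and 2 the share was 72.7% and 78.7% at P14 and 83.5% and 85.25% at P16, so at P16 both cKO libraries lay below both controls. Cre controls ranged from 76.2% to 82.9% at P14 and from 85.2% to 90.2% at P16, and cKO library 3 stood at 73.45% and 82.6%, below all Cre controls of its stage. Among the beta-tubulins, Tubb4b took 58.1% and 61.9% in control at P14 and 66.4% and 66.0% at P16. In cKO at P16 it took 63.0% and 64.5%, again below both controls. In the second kit Tubb4b took 60.2% in cKO library 3 at P16, inside the range of 58.8% to 68.35% in Cre controls. No test was made on these shares, which sum over genes of uncertain division. The share of the Tuba3 genes may be too high, as the Tuba1 trio shared more sequence.

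**Figure D1:**
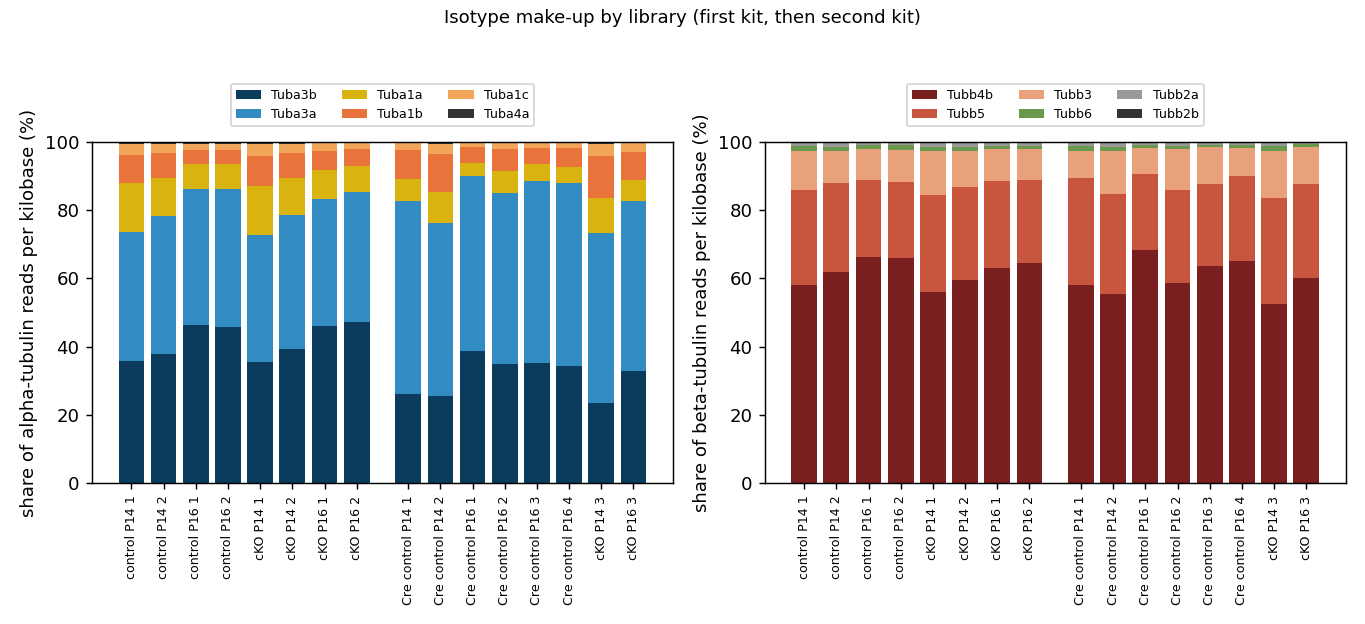
Share of each of the 6 alpha-tubulin genes (left) and 6 beta-tubulin genes (right) in its class, in percent of reads per kilobase, as 1 stacked bar for each of the 16 libraries, the first kit before the second. Tuba3a with Tuba3b make up 73.65% and 78.3% in control at P14, 86.4% and 86.3% in control at P16, and 83.5% and 85.25% in cKO libraries 1 and 2 at P16.

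The comparison of control testes at P14 and P16 gives the course of these genes over the days in which the knockout was examined. Between the stages 14 of the 36 genes were higher and 3 lower at P16 in control, where called means a limma adjusted p under 0.05 over all 17641 genes tested. Of all genes tested, 20.9% were called, 14.3% higher and 6.61% lower. In the libraries of Cre control, which share none with the control fit, 9 genes were higher and 2 lower, where 11.8% of 18857 genes were called, 9.58% higher and 2.25% lower. The genes called higher in both were 7: Agbl2, Agbl5, Ttll5, Ttll6, Ttll13, Tuba3a and Tuba3b. Tubb5 was lower in both. The median change of the 36 was 0.04 on the log2 scale in control (-0.01 over all genes) and 0.13 in Cre control (0.01 over all genes), so the increases were not shared by the whole set. Without control library 1 at P14, control library 1 at P16 or control library 2 at P16, 9 genes were higher and 0 lower. Without Cre control library 1 at P14, 5 were higher and 0 lower. Without Cre control library 3 at P16, 6 were higher and 0 lower, and without Cre control library 2 at P14 or Cre control libraries 1 or 4 at P16, 1 was lower. Of the Cre controls at P16 only library 1 was sequenced in the run of both Cre controls at P14, so stage and run are partly confounded in that fit. Within that run, with 1 library at P16 and no test, all 11 genes called in Cre control had a change of the same sign.

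The modifying enzymes had the largest increases. Ttll6, which lengthens glutamate chains, stood at 1.51 and 1.61 CPM in control at P14 and 6.18 and 5.41 CPM at P16, a change of 1.86 on the log2 scale (SE 0.16, limma adjusted p 0.000239). In Cre control its change was 2.49 (SE 0.36, limma adjusted p 0.00180). Ttll13, another chain-lengthening glutamylase, rose from 17.8 and 18.0 CPM to 43.1 and 40.9 CPM, a log2 change of 1.23 (SE 0.13) in control and 1.71 (SE 0.21) in Cre control. Ttll5, which starts glutamate chains, rose by 0.62 (SE 0.073) and 0.64 (SE 0.15) in the same order. Control libraries of P14 and P16 did not overlap for any of these 3 genes.

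All 4 Agbl carboxypeptidases were called higher at P16 in control. Agbl2 rose from 24.2 and 27.8 CPM to 65.1 and 66.4 CPM, a change of 1.34 on the log2 scale (SE 0.15, limma adjusted p 0.000434), and by 1.82 (SE 0.20) in Cre control. Agbl5, which removes the glutamate at the branch point of a chain and is required for male fertility, rose from 65.7 and 72.0 CPM to 138 and 145 CPM, by 1.04 (SE 0.12), and by 1.34 (SE 0.17) in Cre control. Agbl4 rose by 1.64 (SE 0.23) and Agbl3 by 0.38 (SE 0.11, limma adjusted p 0.0401) in control. In Cre control Agbl4 and Agbl3 had changes of 1.00 and 0.34 and were not called. The remaining Ttll genes called in only 1 fit were Ttll3 in control (0.67) and Ttll9 (1.37) and Ttll11 (1.16) in Cre control, all higher. The calls of Agbl3 and Ttll3 in control were lost whichever of the 4 control libraries was left out. Without Cre control library 1 at P14 the calls of Ttll5, Ttll9 and Ttll11 in Cre control were lost, and the same held without Cre control library 3 at P16.

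The structural tubulins divided. Tuba3b rose from 382 and 391 CPM to 712 and 726 CPM in control, a log2 change of 0.90 (SE 0.086), and by 1.18 (SE 0.16) in Cre control. Tuba3a rose by 0.62 (SE 0.077) and 0.67 (SE 0.13). Its call in Cre control was lost without Cre control library 1 at P14. Tubb4b, Tuba4a, Tubd1, which encodes the delta-tubulin of centrioles, and Tubgcp2, a core subunit of the gamma-tubulin complex, had smaller increases in control of 0.15, 0.33, 0.41 and 0.31, and none was called in Cre control, where Tuba4a had a change of -0.26. The calls of Tuba4a, Tubb4b, Tubd1 and Tubb2a were lost whichever control library was left out. Lower at P16 in control were Tubb2a (-0.51), Tuba1b (-0.30) and Tubb5 (-0.26). Tubb5 fell from 476 and 406 CPM to 375 and 359 CPM. In Cre control Tubb5 changed by -0.31 (SE 0.081, limma adjusted p 0.0331) and Tubb6 by -0.77 (SE 0.18, limma adjusted p 0.0180). The call of Tubb5 was lost under 7 of 12 alternatives in Cre control and 4 of 14 in control. That of Tuba1b in control was lost under 4 of 14. That of Tubb6 in Cre control was lost under 3 of 12. The summed level of 20 pachytene and later spermatocyte markers moved with the stage, with 18 of the 20 called higher in control and 17 in Cre control, and its part in these changes was not tested.

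**Figure D2:**
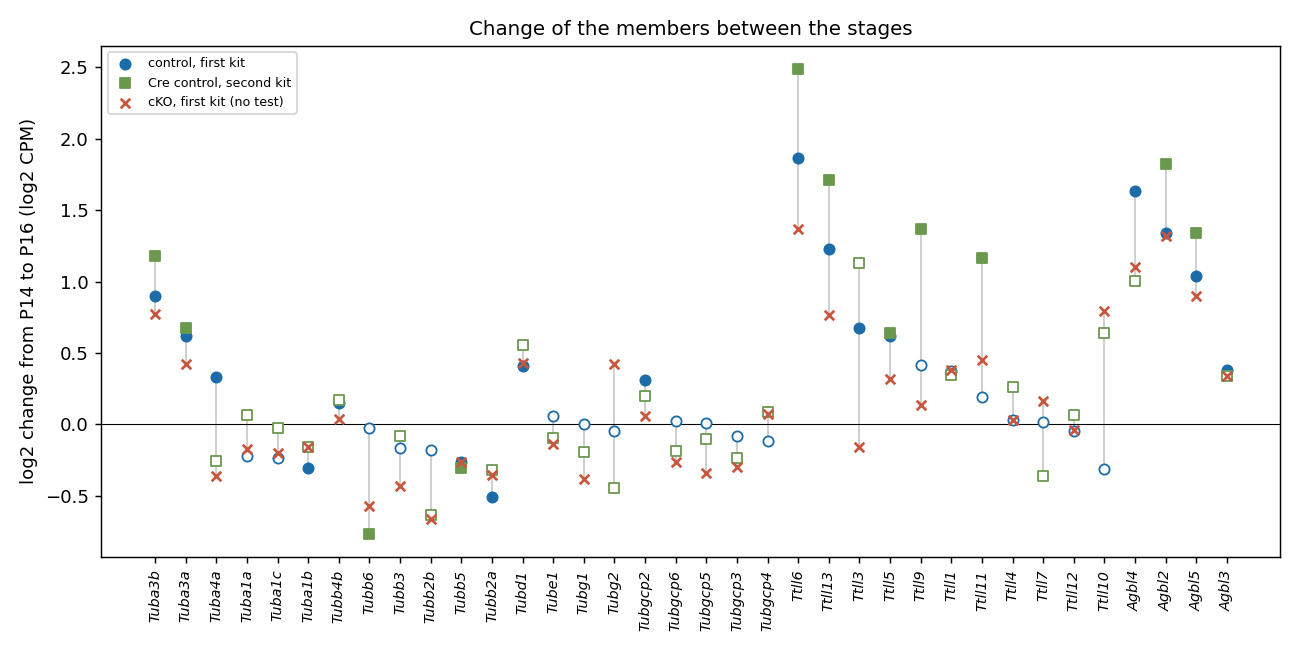
Change from P14 to P16 on the log2 CPM scale (vertical axis) for each of the 36 genes, ordered by role, in control (circles), Cre control (squares) and cKO libraries 1 and 2 (crosses, with no test); filled symbols were called and open ones were not. Ttll6 stands highest in control (1.86) and Cre control (2.49), and Tuba4a is at 0.33 in control and -0.36 in cKO.

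At P14, soon after tamoxifen, the comparison of cKO with control called 0 of the 36 genes with limma, and 0 had an unadjusted p under 0.05. Of 17270 genes 0.00579% were called, which is Ythdc2 alone, and 410 genes had an unadjusted p under 0.05. Changes of the 36 ran from -0.44 (Tubg2) to 0.58 (Tubb2b), with a median of 0.03 (0.01 over all genes). DESeq2 and edgeR on the recovered reads also called 0 of the 36. Of the genes lower at P16, Tuba4a stood at 290 and 287 in control and 270 and 261 in cKO, Tubg1 at 811 and 812 against 843 and 789, and Tubgcp5 at 1759 and 1786 against 1773 and 1787. The 2 groups overlapped for Tubg1 and Tubgcp5 and not for Tuba4a. Of the genes called higher at P16, Agbl2, Tuba1c, Tuba1b, Tuba1a and Tubb5 had changes of 0.20, 0.19, 0.14, 0.09 and 0.09 at P14 that were not called, and Ttll10 one of -0.13. Against Cre control at P14, limma again called 0 of the 36 and 0.0% of 18196 genes, with 705 genes and 0 of the 36 at an unadjusted p under 0.05. DESeq2 and edgeR again called 0 of the 36. Within the second kit at P14, cKO library 3 lay above both Cre controls in 11 of the 36 genes and below both in 12, beside 26.9% and 33.3% of all genes. In the test against Cre control 5 of the 36 were called higher and 5 lower without cKO library 3, beside 34.9% of all genes, when kit and genotype cannot be told apart.

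At P16, 16 of the 36 genes were called in the comparison of cKO with control, 6 higher and 10 lower. Of all 17986 genes, 38.6% were called, 18.6% higher and 19.9% lower, so the number of called genes among the 36 is near the background. Higher were Tuba1a, Tuba1b, Tuba1c, Tubb5, Agbl2 and Ttll10. Lower were Tuba4a, Tubb6, Tubg1, Tubgcp2, Tubgcp3, Tubgcp5, Tubgcp6, Ttll3, Ttll5 and Ttll13. Except for Ttll10 (1.00), Tuba4a (-0.79) and Ttll3 (-0.65), log2 changes were at most 0.50 in size. The median over the 36 was -0.00111, beside -0.000495 over all genes. The higher calls depended on the control libraries: without control library 1, 1 gene was higher and 9 lower, and without control library 2, 3 were higher and 8 lower.

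**Figure D3:**
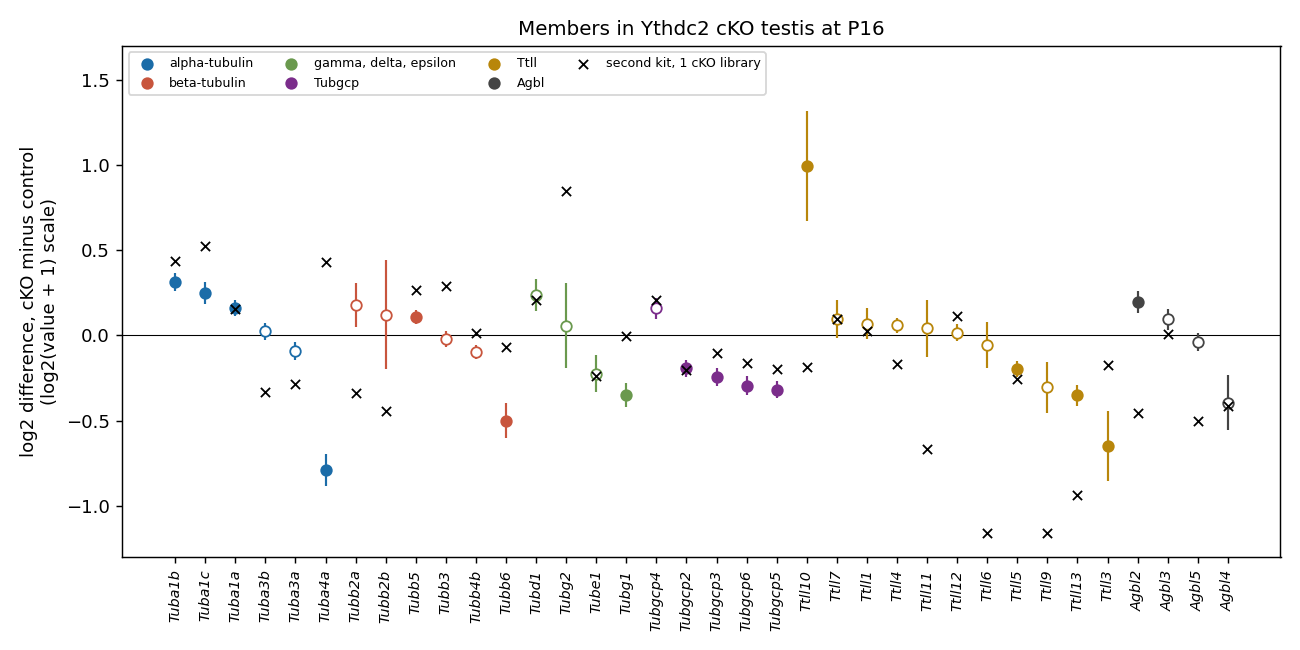
Log2 change in cKO against control at P16 for the 36 genes, coloured by role, with the SE of the fit as bars (2 libraries per group; filled points were called), and crosses for the difference between cKO library 3 and the Cre controls in the second kit. Tuba4a is lowest in the first kit at -0.79 and stands at 0.43 in the second, while the Tuba1 genes and Tubb5 lie above 0 in both.

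Cell type markers moved in the same libraries. All 15 Sertoli cell markers and all 20 markers of pachytene and later spermatocytes had reads, as whole testis holds both. In cKO at P16 the early meiotic prophase markers were lower in 18 of 19 genes, with a summed level of 64920 to 70110 against 89580 to 93210 in control, and spermatogonial markers were lower in 11 of 14 and higher in 2 (18770 to 19070 against 24200 to 24470). Sertoli cell markers were higher in 11 of 15 (152000 to 168000 against 127900 to 133200) and macrophage markers in 8 of 9 (4949 to 5097 against 3558 to 3562). Leydig cell markers were higher in 5 of 8 tested, endothelial markers in 2 of 7 and peritubular myoid markers in 1 of 6. Pachytene and later markers were higher in 9 of 20 and lower in 3 (61940 to 68210 against 56580 to 56820). Of the round spermatid markers, Prm2 and Tnp2 were at 0 in all 4 libraries. Against Cre control at P16, where 2 of the 3 cKO libraries differ in kit, fewer markers were called. Early meiotic prophase markers were lower in 4 of 19, and their sums overlapped (36680 to 57800 in cKO, 41480 to 56200 in Cre control). Sertoli cell markers were higher in 1 of 15, macrophage markers in 1 of 9 and pachytene and later markers in 1 of 20. Macrophage sums did not overlap (3763 to 4175 in cKO, 2744 to 3515 in Cre control), while the sums of every other list overlapped. Spermatogonial markers were called in 0 of 14. Of all genes 9.07% were called there. The part of the marker shifts in the tubulin results was not tested.

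Among the alpha-tubulins, Tuba4a was lower and the Tuba1 trio higher, while the dominant Tuba3 genes were not called. Tuba4a, whose product is made without the C-terminal tyrosine of other alpha-tubulins, stood at 392.8 and 385.7 in control and 223.2 and 226.8 in cKO. All of the cKO values lay below all of the control values. The change was -0.79 on the log2 scale (SE 0.093, limma adjusted p 4.05e-05). Stk16, which overlaps Tuba4a on the other strand, had a log2 change of -0.10 (limma adjusted p 0.162). Tuba1b, a broadly expressed alpha-tubulin, stood at 1771 and 1828 in control and 2333 and 2147 in cKO, a change of 0.31 on the log2 scale (SE 0.054, limma adjusted p 0.000653). Tuba1c (868.7 and 924.4 against 1108 and 1024) and Tuba1a (2952 and 3053 against 3297 and 3414) changed by 0.25 (SE 0.065) and 0.16 (SE 0.046). For all 3 genes of the trio the cKO libraries were above both controls. The call of Tuba1a was lost without control library 1 or 2, and that of Tuba1c without control library 1. Tuba3b stood at 18430 and 18900 in control and 17850 and 20160 in cKO, and Tuba3a at 13630 and 14210 against 12370 and 13800. Both pairs of groups overlapped, and the limma adjusted p was 0.755 for Tuba3b and 0.177 for Tuba3a.

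Of the beta-tubulins, Tubb6 was lower and Tubb5 higher. Tubb6, the class V beta-tubulin, stood at 387.6 and 404.6 in control and 256.2 and 305.5 in cKO, a change of -0.50 on the log2 scale (SE 0.10, limma adjusted p 0.00203). Tubb5 stood at 9711 and 9339 against 10410 and 10150, a change of 0.11 on the log2 scale (SE 0.041, limma adjusted p 0.0472). That call was lost under 8 of 14 alternatives, TMM scaling and the loss of either control library among them. Tubb4b, the most abundant beta-tubulin, stood at 17900 and 17250 against 15990 and 16920. Its groups did not overlap, but the change of -0.10 (SE 0.042) was not called (limma adjusted p 0.0936). Tubb2a, Tubb2b and Tubb3, the last known from neurons and Sertoli cells, had changes of 0.18, 0.12 and -0.02 and were not called.

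Of the gamma-tubulin and Tubgcp genes, most had less RNA in cKO than in control at P16. Tubg1 stood at 905.1 and 833.7 in control and 667.6 and 695.0 in cKO, a change of -0.35 on the log2 scale (SE 0.069, limma adjusted p 0.00154). The core subunits Tubgcp2 (2613 and 2716 against 2270 and 2396) and Tubgcp3 (1643 and 1622 against 1406 and 1351) changed by -0.19 (SE 0.050, limma adjusted p 0.00840) and -0.24 (SE 0.053, limma adjusted p 0.00296). In each the cKO libraries lay below both controls, and the call of Tubgcp2 was lost without control library 2. Of the subunits that occur in smaller number in the ring, Tubgcp5 stood at 1894 and 1922 against 1517 and 1542, a change of -0.32 on the log2 scale (SE 0.050, limma adjusted p 0.000334). Tubgcp6 stood at 1223 and 1235 against 1006 and 997.4, a change of -0.29 on the log2 scale (SE 0.056, limma adjusted p 0.00131). Tubgcp4 went against the others, at 976.8 and 983.0 in control and 1123 and 1066 in cKO, a change of 0.16 that was not called (limma adjusted p 0.0507). Lower calls were thus made for 4 of 5 Tubgcp genes, beside 19.9% of all genes. Of the overlapping genes on the other strand, 4931415C17Rik at Tubgcp3 was also lower (-0.63, limma adjusted p 0.00105), and Zfp511 at Tubgcp2 and Selenoo at Tubgcp6 had changes of -0.07 and -0.02 that were not called. The strand setting of the counts is not given in the sources used here. Tube1, Tubg2 and Tubd1 had changes of -0.23, 0.06 and 0.24 and were not called.

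Among the Ttll enzymes, 3 of 11 were lower and 1 higher. Ttll13 stood at 1116 and 1064 in control and 827.8 and 880.3 in cKO, a change of -0.35 on the log2 scale (SE 0.063, limma adjusted p 0.000817). Ttll5 stood at 2885 and 2989 against 2502 and 2616, a change of -0.20 on the log2 scale (SE 0.048, limma adjusted p 0.00557), a call lost without control library 2. Ttll3, which adds the first glycine of a chain, stood at 90.4 and 75.6 against 60.2 and 45.6, a change of -0.65 on the log2 scale (SE 0.20, limma adjusted p 0.0235). Its values rest on few reads, it overlaps Arpc4 on the same strand (0.10, limma adjusted p 0.167), and the call was lost without control library 1 or cKO library 2. For Ttll5, Ttll13 and Ttll3 both cKO libraries lay below both controls. Ttll10, which lengthens glycine chains, had the largest change of the 36, 1.00 (SE 0.32, limma adjusted p 0.0270), at the lowest level, and its call was lost without control library 1 or cKO library 1. Ttll6, so much higher at P16 than at P14, stood at 160 and 140.8 in control and 136.8 and 152.2 in cKO, with overlapping groups. Ttll12 and Ttll4, the most abundant of the family, had changes of 0.02 and 0.06. The remaining 4, Ttll1, Ttll7, Ttll9 and Ttll11, had changes between -0.30 and 0.09 and were not called.

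Of the Agbl enzymes only Agbl2 was called at P16. It stood at 1686 and 1728 in control and 1809 and 2117 in cKO, a change of 0.20 (SE 0.067, limma adjusted p 0.0338) on the log2 scale. The call was lost without control library 1, control library 2 or cKO library 2. Agbl5 stood at 3586 and 3771 against 3406 and 3773, with overlapping groups and a change of -0.04. Agbl4 was low and stood at 102.9 and 121.0 against 83.5 and 86.0, a change of -0.39 (SE 0.16) that was not called (limma adjusted p 0.0689), and Agbl3 had a change of 0.10.

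**Figure D4:**
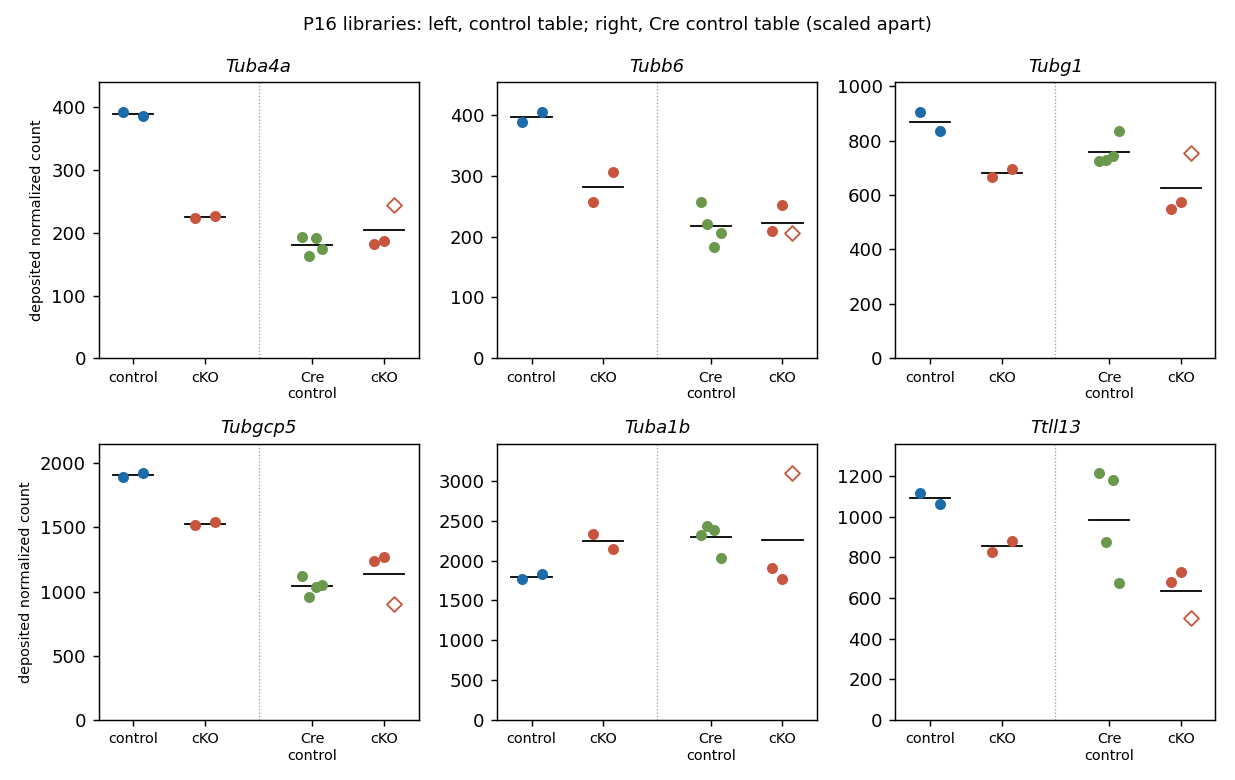
Deposited normalized counts (vertical axis, from 0) of Tuba4a, Tubb6, Tubg1, Tubgcp5, Tuba1b and Ttll13 in every library of P16, with the table of control left and that of Cre control right of the dotted line; points are libraries, bars are group means and the open diamond is cKO library 3. Tuba4a separates control (392.8 and 385.7) from cKO libraries 1 and 2 (223.2 and 226.8), while its Cre controls lie at 163.7 to 194.2 and cKO library 3 at 244.8.

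Whether the effect of the deletion differed between P16 and P14 was tested as an interaction in the 8 libraries of the first kit. Lower at P16 than at P14 in this sense were 4 of the 36 genes and higher 0, with 11 of the 36 (30.6%) at an unadjusted p under 0.05, beside 26.9% of all genes. Of 17641 genes 9.35% were called, 6.84% lower and 2.51% higher, and edgeR called 2 of the 36 lower and 0 higher. Tuba4a stood at 11.96 and 11.83 CPM in control and 11.25 and 11 CPM in cKO at P14, and at 15.2 and 14.8 CPM in control and 8.57 and 8.74 CPM in cKO at P16. The difference of effects was -0.69 (SE 0.12, limma adjusted p 0.0112). Between the stages Tuba4a thus changed by 0.33 in control and by -0.36 in cKO. Tubgcp5 stood at 72.7 and 73.6 CPM in control and 73.9 and 75.2 CPM in cKO at P14, and at 73.1 and 73.9 CPM against 58.3 and 59.4 CPM at P16, a difference of -0.35 (SE 0.066, limma adjusted p 0.0147). Tubg1 followed the same course, with 33.5, 33.4, 35.1 and 33.2 CPM at P14 and, at P16, 34.9 and 32.1 CPM in control and 25.7 and 26.8 CPM in cKO, a difference of -0.38 (SE 0.096, limma adjusted p 0.0394). For Tubb6 the P14 libraries held 16.1 and 15.0 CPM in control and 15.7 and 16.2 CPM in cKO, and those of P16 held 15.0 and 15.6 against 9.84 and 11.8 CPM, a difference of -0.55 (SE 0.14, limma adjusted p 0.0450). Among these 8 libraries the low values of the 4 genes were those of cKO at P16. The Cre controls, in the second kit, went from 20.3 and 16.9 CPM at P14 to 9.36 to 13.5 CPM at P16 for Tubb6 (change -0.77, called), and from 8.74 and 13.7 CPM to 8.35 to 10.2 CPM for Tuba4a (-0.26, not called). The change between stages in cKO libraries 1 and 2 was -0.57 for Tubb6. The 4 calls fell to 0 without control library 2 at P14, either control library at P16 or cKO library 1 at P16, to 1 without control library 1 at P14, and rose to 8 without cKO library 1 at P14.

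Of the 14 genes that rose between P14 and P16 in control, 12 also had a positive change between the stages in cKO libraries 1 and 2, the exceptions being Tuba4a (-0.36) and Ttll3 (-0.16). At P16, 5 of the 14 were called lower in cKO than in control (Tuba4a, Tubgcp2, Ttll3, Ttll5 and Ttll13), 1 higher (Agbl2) and 8 not. Of all genes tested at P16, 19.9% were called lower and 18.6% higher. The shares among all genes that rose in control were not computed. These counts share the control libraries of P16 with the change between stages and are given as a description.

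In the comparison with Cre control at P16 limma called 0 of the 36 genes, and 9.07% of 19200 genes, 4.3% higher and 4.77% lower. An unadjusted p under 0.05 was found for 9 of the 36 (25%) and 38.4% of all genes. DESeq2 on the recovered reads called 1 of the 36 higher and 4 lower, beside 21.8% of all genes, and edgeR called 0, beside 8.09%. Without cKO library 3, the only cKO library that shares its kit with Cre controls, 6 were higher and 9 lower, beside 49.5% of all genes, and kit and genotype cannot be told apart. The smallest limma adjusted p was 0.0561 for Agbl5, at 3627 to 5944 in 4 Cre controls and 2790, 3111 and 3419 in the 3 cKO libraries. All cKO libraries were below all Cre controls for Agbl5, Tuba3a (10130, 11380 and 14750 against 15430 to 20760) and Tubgcp3 (1152, 1113 and 1337 against 1354 to 1541). They were above all for Tubgcp4 (919.6, 878.6 and 754.4 against 601.0 to 742.4). These are 3 genes below (8.33%) and 1 above (2.78%), where 16.9% of all genes lay below and 13.2% above in the same way.

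Within the second kit, cKO library 3 can be set beside the 4 Cre controls at P16, with no test for a single library. Only Cre control library 1 was sequenced in its run, and the other 3 Cre controls had 39.4% to 41.2% of reads unmapped, beside 30.7% to 39.5% in the 5 libraries of that run. Of the 36 genes 6 (16.67%) lay above all 4 Cre controls and 15 (41.67%) below all 4, beside 24.0% and 30.0% of 19200 genes. Of the 16 genes called in the first kit, 13 had the same direction (81.25%), beside 83.8% of all genes called higher and 79.7% of those called lower. The Tuba1 trio and Tubb5 kept their direction. Tuba1b stood at 3096 against 2026 to 2439, Tuba1c at 1087 against 628.2 to 880.8 and Tubb5 at 10780 against 8526 to 9538, all above every Cre control, while Tuba1a at 2200 was within 1559 to 2408. Tubgcp5 (906.6 against 958.5 to 1121) and Tubgcp3 were below all 4. Other genes called lower in the first kit were within the Cre controls. These included Tubgcp2 (2241 against 2200 to 2927), Tubgcp6 (984.7 against 973.5 to 1213) and Tubb6 (205.1 against 182.9 to 257.4). Tubg1 at 754.4 was within 725.2 to 834.4, with a difference of -0.00481. Against the Cre control of its own run alone, 11 of the 16 genes had the direction of the first kit, and Tubg1 (0.06) and Tubgcp6 (0.02) joined the exceptions given next.

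The exceptions were Tuba4a, Agbl2 and Ttll10. Tuba4a stood at 244.8 in cKO library 3 against 163.7 to 194.2 in Cre controls, a difference of 0.43 in the direction opposite to that in the first kit. Agbl2 stood at 898.7 against 964.7 to 1673 (-0.45), and Ttll10 at 29.1 against 30.2 to 39.2 (-0.18). Several enzymes that were higher at P16 than at P14 were low in cKO library 3. Ttll13 stood at 500.3 against 673.9 to 1214, Ttll6 at 50.3 against 78.8 to 174.7, Ttll9 at 74.1 against 107.9 to 216.1 and Agbl5 at 3419 against 3627 to 5944. Agbl3 (500.3 against 436.6 to 585.0), Agbl4 (68.8 against 60.1 to 132), Ttll3 (64.9 against 55.4 to 103) and Ttll5 (2262 against 2169 to 3174) did not fall outside the values of the Cre controls. At P14 cKO library 3 was also below both Cre controls for Ttll13 (223.6 against 270.8 and 278.2) and Ttll6 (9.56 against 12.3 and 26.5). The same held for Ttll9 (43.0 against 48.4 and 73.9) and Agbl5 (1339 against 1758 and 1836). Agbl3 and Ttll5 were below both at P14, Agbl4 was within and Ttll3 above. At P16 pachytene and later markers summed to 38750 to 56230 in all cKO libraries, of both kits, and 35810 to 65970 in Cre controls. The lowest cKO sum, 38750, was that of library 3. At P14 these markers summed to 12430 in cKO library 3, below both Cre controls (12680 and 16910). The part of stage composition was not tested.

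When all 9 libraries of P16 were fitted with the kit as a covariate, 3 of the 36 genes were called, beside 14.1% of 19599 genes. Tuba1b was higher (0.37, limma adjusted p 0.0114), and Tubgcp5 (-0.26, limma adjusted p 0.0298) and Ttll13 (-0.61, limma adjusted p 0.0452) were lower. Tuba4a changed by -0.24 (limma adjusted p 0.460) and Tubg1 by -0.20 (limma adjusted p 0.173) in that fit, and Agbl2 turned to -0.091 (limma adjusted p 0.762).

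Other genes of the tubulin pathway were taken from 4 lists. Of 25 genes for tubulin folding, 2 were higher and 11 lower in cKO against control at P16, with a median change of -0.10. The tubulin cofactor Tbcd (1821 and 1805 against 2316 and 2149) and the phosducin-like cochaperone Pdcl2 changed by 0.30 and 0.29. Arl2, the small GTPase that works with the cofactors (419.8 and 419.7 against 298.9 and 305.5), Tbccd1 and the prefoldin subunit Pfdn6 changed by -0.47, -0.34 and -0.28. Of 15 tested genes for other modifying enzymes and their partners, 1 was higher and 4 lower, with a median of -0.13. Tpgs2, a subunit of the polyglutamylase that contains Ttll1, stood at 1675 and 1731 against 905.4 and 961.1, a change of -0.87 on the log2 scale (SE 0.058, limma adjusted p 4.30e-07), and Tpgs1 of the same complex changed by -0.26. Ttll1 itself stood at 382.4 and 339.3 in control and 384.3 and 371.8 in cKO. Agtpbp1, a deglutamylase related to the Agbl enzymes, was higher by 0.20, and Svbp, the partner of the vasohibin detyrosinases, changed by -0.28.

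On the list for other genes of microtubule nucleation, 3 of 25 genes were higher and 6 lower, with a median of -0.03. Haus8 (945.6 and 984.0 against 429.9 and 431.9) and Haus2 (1308 and 1292 against 818.1 and 853.4), subunits of augmin, which branches microtubules by recruiting the gamma-tubulin ring, changed by -1.16 (SE 0.069) and -0.64 (SE 0.059). The small ring subunit Mzt1 was higher by 0.28 and Nin by 0.30. Also on the list were the kinase Lats1, higher by 0.35, and the actin-related Actr3b, which changed by -0.38. Neither is known as a nucleator of microtubules. Of 26 tested genes for severing and dynamics, 8 were higher and 8 lower, with a median of -0.02. Lowest were Tppp (-0.86), Map7d2 (-0.78) and Mapre3 (-0.26), all microtubule-binding proteins, and highest Camsap2 (0.33), Map7d3 (0.31) and Camsap3 (0.29), of which the Camsap proteins bind minus ends. Each list is read against the 18.6% of all genes called higher and the 19.9% called lower. Against Cre control at P16 the folding list had 0 genes higher and 3 lower, and the modifying enzymes 0 and 2. The nucleation list had 4 higher and 1 lower there, with a median of 0.05, and severing and dynamics 2 and 1. Of all genes 4.3% were higher and 4.77% lower in that comparison, in which kits differ. At P14 against control, 0 genes of the 4 lists were called with limma, and 3 had an unadjusted p under 0.05.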

How the data were processed

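Testis RNA libraries from 16 samples were analysed in 4 deposited tables, each holding 1 stage and 1 control type. The submitters' processing notes name Trim Galore, STAR, HTSeq and DESeq2 and the genome build GRCm39 (mm39), without versions. The aligner version, annotation and strand setting are not given in the sources used here. The values deposited by the authors are a signal (normalized counts) that was scaled by size factors within each table. Names tied all 20 columns to samples, leaving 0. In each column 100% of values above 0 were whole multiples of 1 read (within 0.05 reads), so reads were recovered. Rows of the counter for unmapped, ambiguous, multi-mapping and unassigned reads, 53.4% to 63.0% of a library, were left out. cKO libraries 1 and 2 hold the same reads in both tables of a stage and were counted once. No 2 replicates agreed within sampling noise (chi-square per gene 2.36 to 23.8 within a kit).

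Gene IDs were named with GENCODE M21, a release for another build, which was used for names, exon lengths, exon overlaps and shared sequence, and no gene coordinates from it are printed. Comparisons within a table used limma 3.58.1 (eBayes with trend, R 4.3.3) on log2(value + 1), keeping genes that reached 10 in 2 or more libraries, a scale that understates changes of low genes. The interaction and the changes between stages were fitted with limma to the recovered reads as log2 CPM (TMM scaling, with 1 as prior count), over genes with at least 0.5 CPM in at least 2 libraries, each kit fitted on its own. Genes with a Benjamini-Hochberg adjusted p under 0.05 over all genes tested are termed called. The main functions were tested on simulated data. Alternatives were edgeR 4.0.16 (quasi-likelihood test), DESeq2 1.42.0, a block for the replicate number, other pseudocounts, filters and scaling, eBayes with no trend, a kit covariate and leaving out each library. In a fit with 1 library left in a group, that library is assumed to vary like the others.

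The members, gene lists and marker lists were chosen with earlier results of these data known. Given with values in each library of the comparison are Ythdc2, members called at P16 with a log2 change of at least 0.5 in size, members called in the interaction and the member with most reads per kilobase in each role. Members outside that rule with values in full, such as Tuba1b and Ttll13, were chosen after their values were seen. From each pathway list up to 3 called genes with the largest change in each direction are named.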

Additional observations from a re-analysis of the deposited data

Results flagged for a closer look

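The effect of the deletion differed between P16 and P14 by the interaction test in 4 genes, which is what drew attention to them: Tuba4a (difference -0.69, limma adjusted p 0.0112), Tubb6 (-0.55, limma adjusted p 0.0450), Tubg1 (-0.38, limma adjusted p 0.0394) and Tubgcp5 (-0.35, limma adjusted p 0.0147). All 4 were lower in cKO libraries 1 and 2 at P16 than in both controls. In the second kit, cKO library 3 at P16 was below all Cre controls for Tubgcp5 only. It was within their range for Tubb6 and Tubg1, and above them for Tuba4a (244.8 against 163.7 to 194.2). Of the 36 genes, 0 had a library far from the others among the 4 Cre controls at P16.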

How the results depend on the processing

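With 2 libraries per group, single calls near the threshold are weak, and levels of genes under about 100 rest on few reads. Settings that moved a count of called genes by over 1.5 times were these. At P16 against control (6939 genes; members 6 higher, 10 lower), eBayes without trend called 1806 genes and 0 and 1 members, and the fit of all 9 libraries with the kit called 2757 and 1 and 2. DESeq2 and the fit with no filter each called 3 members higher. At P14 against control (1 gene) DESeq2 called 6, and 0 were called with no filter or without trend. Against Cre control at P16 (1741 genes, 0 members) DESeq2 called 4188 with 1 member higher and 4 lower, pseudocount 10 called 3277 with 1 member lower, no filter 917, no trend 32 and the kit as a covariate 1. At P14 DESeq2 called 5 genes against Cre control (0). In the interaction (1650 genes, 4 members lower) no filter called 727 with 2 members, and edgeR 2 members. With no filter 1 member was lower between stages in control (3) and 1 in Cre control (2). The cause of these shifts was not tested. The only reversed member was Agbl2, at -0.0912 in the 9-library fit.

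Leaving out each library in turn gave 4591 to 7045 genes at P16 against control, with 1 to 6 members higher and 8 to 13 lower, 0 to 11 at P14, 0 to 9427 against Cre control at P16 (members 0 to 6 higher, 0 to 9 lower) and 0 to 6256 at P14 (0 to 5 and 0 to 5). It gave 307 to 3243 in the interaction (members 0 to 8 lower), 1625 to 4818 between stages in control (9 to 15 higher, 0 to 4 lower) and 713 to 2705 in Cre control (5 to 10 higher, 0 to 2 lower). The highest counts against Cre control were those without cKO library 3, where kit and genotype cannot be told apart.

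The replicate numbers were not shown to pair libraries: same-numbered libraries correlated at 0.0798 at P16 and 0.203 at P14, with 2 pairs each. With the replicate number as a block, 8200 genes were called at P16 (members 8 higher, 13 lower) and 5 at P14 against control. Against Cre control the block gave 0 at P16 and 6966 at P14 (members 7 higher, 4 lower), where cKO library 3 stands alone in its block. It gave 2509 genes with 7 members lower in the interaction, and 1467 with 0 members lower between stages in Cre control.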
